A study of Rattus norvegicus and Mus musculus with 3 samples.

Results

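The monoamine and histamine receptor genes are the genes whose symbols name a serotonin receptor (Htr1 to Htr7), an alpha or beta adrenergic receptor (Adra1, Adra2, Adrb), a dopamine receptor (Drd1 to Drd5) or a histamine receptor (Hrh1 to Hrh4). The symbol rule found 32 genes in each deposited table, of 34714 listed for the mouse and 30438 for each rat. They comprise 14 serotonin, 9 adrenergic, 5 dopamine and 4 histamine receptor genes. Hippocampal RNA was sequenced in 3 libraries, 1 per group. The mouse library was labelled 3xTg-AD wild type, genotype WT, at an age of 6 months, and so is a control of an Alzheimer's disease model rather than a model itself. Both rat libraries carried the genotype label WT at 3 to 4 months, 1 labelled Sham and 1 labelled 2VO. 2VO commonly stands for tying off the 2 common carotid arteries, which reduces blood flow to the forebrain, and Sham for the operation without that step. The sources used here do not give strain, sex, time since surgery or any pooling of animals.

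Serotonin, noradrenaline, dopamine and histamine reach the hippocampus along axons of neurons that lie elsewhere, in the raphe, locus coeruleus, midbrain and hypothalamus. Their receptors, by contrast, are made by hippocampal neurons and glia and by the vessel and ventricle walls. All members but Htr3a and Htr3b encode receptors with a bundle of membrane-spanning helices that act through G proteins. Gs raises cyclic AMP, Gi/o lowers it and opens potassium channels, and Gq/11 activates phospholipase C. Htr3a and Htr3b encode subunits of a cation channel that serotonin opens.

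Expression is given as the deposited normalized values in units that no label or file header names. The depth behind them is unknown. With 1 library per group there is no replicate error and no test, so each difference below separates these libraries and not the conditions. The order of different genes by level holds only if the values are per transcript length, which is not stated. The coding lengths of the members ran from 1071 bases for Htr5a to 1686 for Adra1d in the mouse annotation GENCODE M21. These lengths leave out the untranslated ends, so they do not show that the transcripts are alike in length. In bulk RNA, fewer cells of a type and less RNA per cell cannot be told apart.

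At a level of 1 unit or more stood 21 of the 32 members in the mouse and 17 in each rat. Over all listed genes the share at 1 unit or more was 36.8% in the mouse, 44.3% in the Sham rat and 44.6% in the 2VO rat. The same 17 genes reached 1 unit in all 3 libraries. They were Htr1a, Htr1b, Htr2c, Htr3a, Htr4, Htr5a, Htr5b, Htr6, Adra1a, Adra1d, Adra2a, Adra2c, Adrb1, Drd1, Hrh1, Hrh2 and Hrh3. In addition Htr2a, Htr7, Adra1b and Drd5 reached 1 unit in the mouse alone. The 11 genes below 1 unit in each library included Htr1d, Htr1f, Htr2b, Htr3b, Adra2b, Adrb3, Drd2, Drd3, Drd4 and Hrh4. Near the threshold, Drd1 was 1.04 units in the mouse, Adra2a was 1.09 in Sham, and Adra1b was 0.848 in Sham and 0.923 in 2VO.

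**Figure D1:**
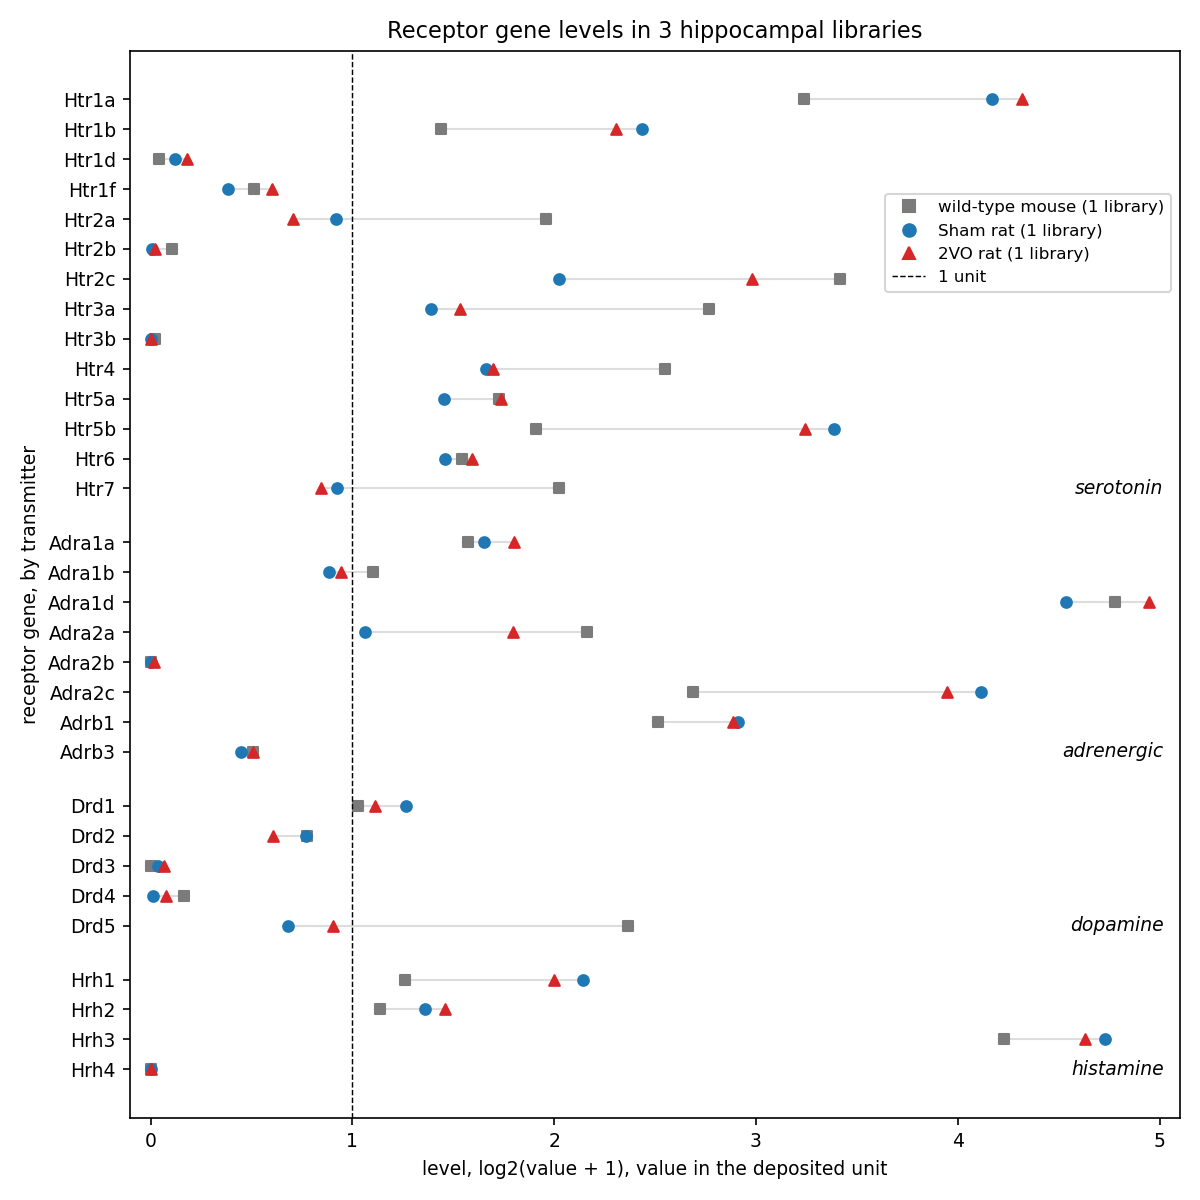
Level of the receptor genes described in the text as log2(value + 1), with the value in the deposited unit on the horizontal axis; squares, circles and triangles stand for the wild-type mouse, the Sham rat and the 2VO rat, 1 library each, and the dashed line marks 1 unit. Adra1d, Hrh3 and Htr1a lie furthest right in both rats, and Hrh4 and Htr3b lie at or near 0 in every library.

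The 3 leading receptors held about as much of the summed level as all others together. Adra1d, Hrh3 and Htr1a together made up 51.1% of the sum over the members in Sham and 52.7% in 2VO. In the mouse the leading genes were Adra1d, Hrh3 and Htr2c, with 47.1%. In each library the leading genes belonged to 3 different transmitter systems. Summed by transmitter, adrenergic receptors held 38.5% in the mouse, 39.4% in the Sham rat and 41.9% in the 2VO rat. Serotonin receptors held 38.5%, 34.3% and 35.4%, histamine receptors 17.8%, 24.1% and 20.7%, and dopamine receptors 5.26%, 2.17% and 1.93%.

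Among the serotonin receptors that lower cyclic AMP, Htr1a had the highest level. It encodes the receptor that hyperpolarizes pyramidal cells and also serves as the autoreceptor of raphe neurons. Htr1a was 8.45 units in the mouse, 17.0 in the Sham rat and 18.9 in the 2VO rat. The rats lay close together and both above the mouse, with a log2 ratio of 2VO to Sham of 0.15. This ratio, here and below, has 1 unit added to each value, which understates the difference of low genes. Htr1b, which encodes a receptor of axon terminals that curbs transmitter release, was 1.71 in the mouse, 4.41 in the Sham rat and 3.94 in the 2VO rat. Htr1d and Htr1f, targets of migraine drugs, stayed under 1 unit, Htr1d at 0.0305, 0.0870 and 0.135 and Htr1f at 0.427, 0.305 and 0.515.

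The related genes Htr5a and Htr5b differed in pattern. Htr5a was 2.31 units in the mouse, 1.74 in the Sham rat and 2.33 in the 2VO rat, so the mouse and the 2VO rat nearly coincided. Htr5b, whose human counterpart is a pseudogene, was 2.76 in the mouse, 9.47 in the Sham rat and 8.46 in the 2VO rat. Htr5b was thus the fifth of the 32 receptors by level in each rat and only the 13th in the mouse.

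The serotonin receptors that act through Gq/11 held the gene with the largest ratio between the rats when 1 unit is added. Htr2c, whose receptor is known for its abundance in the choroid plexus and for the editing of its RNA, was 9.68 units in the mouse, 3.07 in the Sham rat and 6.89 in the 2VO rat. The Sham rat was the low library and the 2VO rat lay nearer to the mouse. The log2 ratio of 2VO over Sham was 0.95, a 1.94-fold difference with 1 unit added and 2.24-fold without. Htr2a, whose receptor is the target of psychedelic drugs on cortical pyramidal neurons, was also highest in the mouse but lower in 2VO than in Sham, at 2.88 in the mouse, 0.892 in the Sham rat and 0.632 in the 2VO rat. Htr2b, known from heart valves and gut, was 0.0775 in the mouse, 0.00677 in the Sham rat and 0.0169 in the 2VO rat. The Htr2b locus overlaps Psmd1, a proteasome gene at 34.1 units in Sham and 39.7 in 2VO, in the rat RefSeq gene table for GRCr8. The sources used here do not say whether counting used strand, so even this low Htr2b value is uncertain.

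The serotonin receptors that raise cyclic AMP were present at low levels. Htr4 was 4.85 units in the mouse, 2.16 in the Sham rat and 2.25 in the 2VO rat. Htr6 was 1.92, 1.75 and 2.02, so the libraries lay close together. Htr7 was 3.06 in the mouse, 0.894 in the Sham rat and 0.797 in the 2VO rat, so the rats stood just under 1 unit and the mouse well above them. The channel subunit Htr3a, a marker of a class of interneurons, was 5.81 in the mouse, 1.62 in the Sham rat and 1.90 in the 2VO rat. Its partner Htr3b, the neighbouring protein-coding gene in the rat table, was 0.0154 in the mouse and listed at 0 in both rats.

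Alpha-1 adrenergic receptors, which act through Gq/11, held a leading member of the whole set. Adra1d was 26.4 units in the mouse, 22.2 in the Sham rat and 29.8 in the 2VO rat, with a log2 ratio between the rats of 0.41. The mouse fell between the rats. Adra1a was 1.97, 2.15 and 2.48 and Adra1b 1.14, 0.848 and 0.923, so Adra1d stood far above its 2 paralogues in every library.

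Alpha-2 receptors, which act through Gi/o and restrain noradrenaline release, split by member. Adra2a, the main noradrenergic autoreceptor and the target of clonidine and guanfacine, was 3.48 units in the mouse, 1.09 in the Sham rat and 2.48 in the 2VO rat. As for Htr2c, Sham was the low library and 2VO lay between Sham and the mouse. The 2VO to Sham log2 ratio was 0.74, a 1.67-fold difference with 1 unit added and 2.28-fold without. Adra2c was 5.45 in the mouse, 16.3 in the Sham rat and 14.4 in the 2VO rat, so here both rats exceeded the mouse and 2VO was slightly the lower rat. Adra2b, a receptor of vascular muscle, was 0.00301 in the mouse and 0.0109 in 2VO, and was listed at 0 in Sham.

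Beta receptors, which act through Gs, were represented by Adrb1. It was 4.71 units in the mouse, 6.53 in the Sham rat and 6.38 in the 2VO rat, with a log2 ratio between the rats of -0.029, the closest to 0 of the measured members. Adrb3, the receptor of fat, was 0.424 in the mouse, 0.363 in the Sham rat and 0.420 in the 2VO rat.

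Dopamine receptors were the lowest family. Drd1, of the type that raises cyclic AMP, was 1.04 units in the mouse, 1.41 in the Sham rat and 1.16 in the 2VO rat. Its relative Drd5 was 4.15 in the mouse, 0.604 in the Sham rat and 0.873 in the 2VO rat. The order of the pair was therefore Drd5 above Drd1 in the mouse and Drd1 above Drd5 in both rats. Among the types that lower cyclic AMP, Drd2 was 0.710 in the mouse, 0.703 in the Sham rat and 0.523 in the 2VO rat. Drd3, listed at 0 in the mouse, was 0.0260 in Sham and 0.0486 in 2VO, and Drd4 was 0.121, 0.00997 and 0.0531. Genes of striatal projection neurons were set beside them, since tissue from the striatum would carry Drd1 and Drd2. Adora2a, an adenosine receptor gene, was 0.440 in the mouse, 0.727 in the Sham rat and 0.737 in the 2VO rat. Of the 9 striatal markers 6 were measured in the rats, and the summed level of the list was 53.9, 81.0 and 83.2; the largest part in the rats was Ppp1r1b, which encodes the protein phosphatase inhibitor DARPP-32, at 16.4, 51.7 and 49.0. Rxrg, at 0.794 in Sham and 2.24 in 2VO, was the 1 striatal marker past 1.5-fold, where 1.51% of all measured genes were higher. Their part in the dopamine receptor values was not tested.

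Histamine receptors were led by Hrh3, the receptor of axon terminals that restrains the release of histamine and other transmitters. Hrh3 was 17.7 units in the mouse, 25.5 in the Sham rat and 23.8 in the 2VO rat, and was the highest member in Sham and the second highest in the other 2 libraries. Hrh1, the target of sedating antihistamines, was 1.39, 3.41 and 3.00. Hrh2, which raises cyclic AMP, was 1.20, 1.56 and 1.75. Hrh4, a receptor of leukocytes, was listed at 0 in all 3 libraries.

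The comparison of 2VO with Sham sets 1 library beside 1 other, and so describes these libraries and not the vascular model. A gene counted as measured when the mean of both rats was at least 1 unit, which held for 17 members. Of these, Htr2c and Adra2a were at least 1.5-fold higher in 2VO, where 1.51% of all 13550 measured genes were. None was 1.5-fold lower, where 0.967% of all measured genes were. Among the 10219 genes within the level range of the measured members, 1.69% were 1.5-fold higher and 1.02% lower. At 2-fold no member passed in either direction, where 0.244% of all measured genes were higher and 0.199% lower. That 0 rests on the unit added before the log: with 0.25 units added Htr2c and Adra2a passed 2-fold, at log2 ratios of 1.10 and 1.03, where 0.546% of all measured genes were 2-fold higher. Counted by any difference, 10 of the 17 were higher in 2VO and 7 lower; 58.7% of all measured genes were higher, so this split was that of the tables at large. The median log2 ratio was 0.10 over the members and 0.039 over all measured genes.

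**Figure D2:**
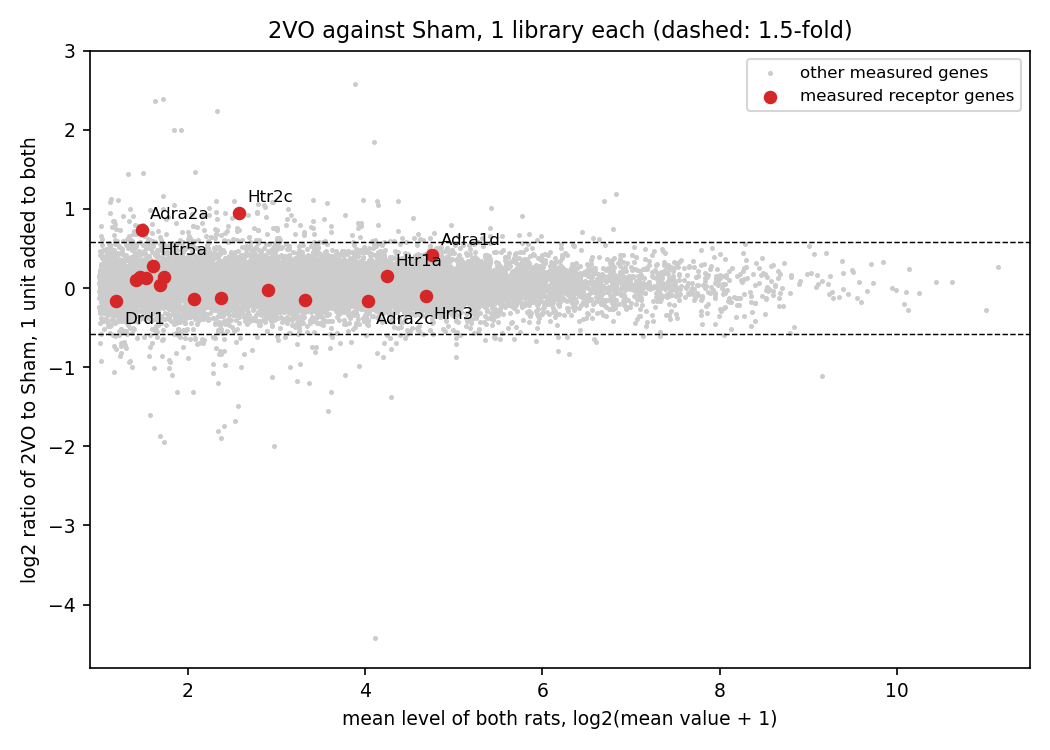
Log2 ratio of 2VO to Sham (1 unit added to both values) against the mean level of both rats as log2(mean value + 1), 1 library per group; grey points are measured genes, red points the 17 measured receptor genes, and dashed lines mark 1.5-fold. Htr2c and Adra2a lie above the upper line and the other 15 receptor genes lie between the lines.

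As background, 58.7% of all measured genes were higher in 2VO, with a median log2 ratio of 0.039. By family the measured members divided as follows. Among 8 serotonin receptors 6 were higher in 2VO, with a median log2 ratio of 0.14 and a range from -0.15 for Htr5b to 0.95 for Htr2c. Among 5 adrenergic receptors 3 were higher, with a median of 0.15 and a range from -0.17 for Adra2c to 0.74 for Adra2a. Among 3 histamine receptors only Hrh2 was higher, at 0.10, while Hrh3 was at -0.10 and Hrh1 at -0.14. The single measured dopamine receptor, Drd1, was at -0.16. By coupling, the 4 measured Gq/11 receptors had a median of 0.28, the 5 Gs receptors 0.039 and the 7 Gi/o receptors -0.10. These counts and medians rest on few genes each, and the Gq/11 median contains Htr2c.

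Choroid plexus genes were set beside Htr2c because that tissue is rich in its transcript, and Ttr, the defining one, had the same order of libraries. Of the 12 genes of the list, with no filter on level, 8 were higher in 2VO than in Sham and 4 lower. Only Ttr and Folr1 reached a mean of 1 unit in the rats, so most of these directions rest on values under 1 unit. The 58.7% of genes higher in 2VO was counted over measured genes only, an unlike set. Ttr, the transthyretin gene, was 15.4 units in the mouse, 0.434 in the Sham rat and 4.75 in the 2VO rat. The order of Htr2c, mouse above 2VO above Sham, was that of 5 of the 12 genes, Ttr, Clic6, Otx2, Prlr and Cldn2. Folr1, a folate receptor, was 0.467, 0.798 and 1.54, an order that Htr2c did not share. The summed level of the list was 24.9 in the mouse, 2.01 in the Sham rat and 7.47 in the 2VO rat. Prlr was listed at 0 in Sham and Sostdc1 at 0 in 2VO, and Kl, another choroid plexus gene, was 4.78 in the mouse, 0.0496 in the Sham rat and 0.0369 in the 2VO rat. Their part in the Htr2c difference was not tested.

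**Figure D3:**
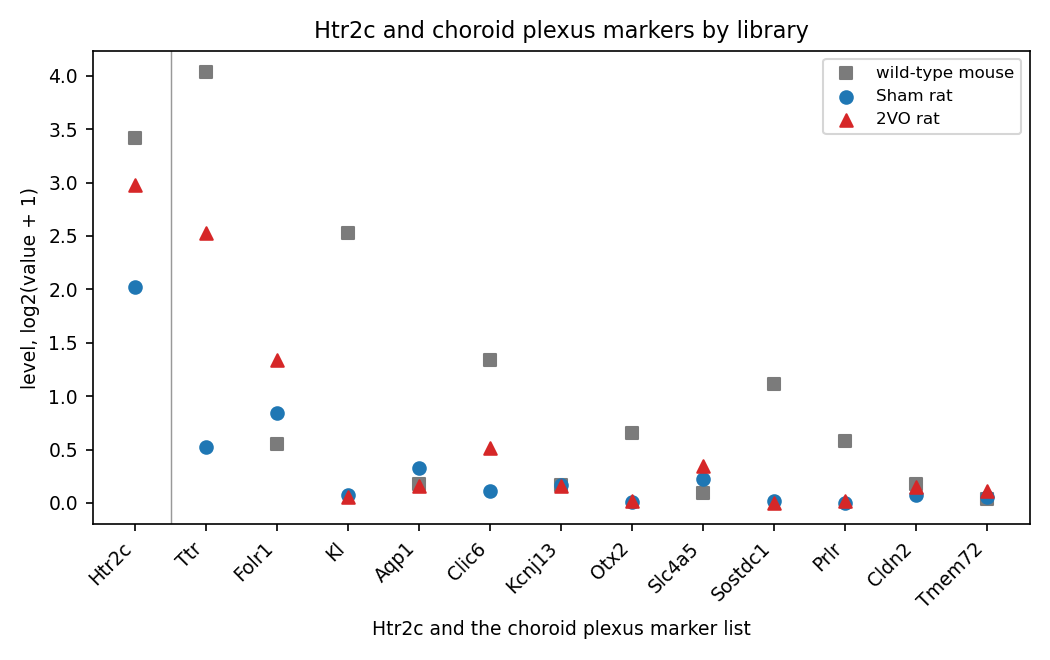
Level as log2(value + 1) of Htr2c, left of the grey line, and of the 12 choroid plexus marker genes in the wild-type mouse (squares), the Sham rat (circles) and the 2VO rat (triangles), 1 library each. Htr2c and Ttr are lowest in Sham and highest in the mouse, and in the rats most of the other markers lie near 0.

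Markers of cortical projection neurons were set beside Adra2a and Htr2c as well, since neighbouring cortex expresses both receptors. Of 10 measured genes 8 were higher in 2VO, where 58.7% of all measured genes were. By 1.5-fold 2 of them were higher, where 1.51% of all measured genes were. The median log2 ratio was 0.10. Lamp5 was 12.1 units in the mouse, 12.2 in the Sham rat and 27.3 in the 2VO rat, and Fezf2 was 7.03, 6.62 and 12.7. Bcl11b went the other way, at 16.6, 45.1 and 30.3. The summed level of the list was 86.6 in the mouse, 130 in the Sham rat and 141 in the 2VO rat. Bcl11b was the largest part of that sum in each library. Interneuron genes were higher in 2VO in 10 of 14 members, against the same 58.7% over all measured genes. Their summed levels were 439 in Sham and 457 in 2VO, and Calb2, at 3.44 and 6.29, passed 1.5-fold. The part of either list in the receptor differences was not tested.

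The libraries carried most markers of hippocampal neurons and almost none of monoamine neurons. Granule cell and pyramidal cell genes such as C1ql2, at 36.0 units in the mouse, 96.6 in the Sham rat and 95.8 in the 2VO rat, and Wfs1, at 23.4, 169 and 111, were present in each. Other markers of these lists were near 0 in the rats: Spink8 had 18.8 units in the mouse, 0.0696 in the Sham rat and 0.0741 in the 2VO rat, Lct was 7.03, 0.0104 and 0.0128, and Tdo2 was 2.87 and 0.0118 in the mouse and Sham and listed at 0 in 2VO. The granule cell and pyramidal cell lists had median log2 ratios of -0.013 and 0.024 between the rats. Of 11 monoamine neuron genes only Slc18a2, the vesicular monoamine transporter, was measured in the rats, at 1.06 in Sham and 1.34 in 2VO. The noradrenaline transporter gene Slc6a2 and the transcription factor gene Fev were listed at 0 in both rats. Microglial genes were lower in 2VO in 9 of 11 members with a median of -0.29, and oligodendrocyte genes higher in 9 of 11 with a median of 0.32. Over all measured genes 58.7% were higher in 2VO, with a median of 0.039. Astrocyte, endothelial and mural cell genes had medians of -0.011, 0.070 and -0.026. Of the 9 mast cell genes only Kit was measured, and Cpa3 was listed at 0 in each library. Genes of these lists past 1.5-fold were Plk5, Wfs1, Gfap, C1qa, C1qc and Aif1, lower in 2VO, and P2ry12 and Ermn, higher. Over all measured genes 0.967% were 1.5-fold lower and 1.51% higher. Gapdh, used by every cell, was 6.36 in the mouse against 1031 in Sham, which limits single values across the species.

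Genes that make, carry and degrade the transmitters, and those that act below the receptors, were compared in 8 lists of 73 genes in all, of which 51 were measured. None of the 51 passed 1.5-fold, near the 1.51% higher and 0.967% lower over all measured genes. By any amount 36 were higher in 2VO and 15 lower, where 58.7% of all measured genes were higher, and the median log2 ratio was 0.092. The extremes were Pcbd1, an enzyme that regenerates tetrahydrobiopterin, at 0.52, and Adcy1, a calmodulin-stimulated adenylyl cyclase, at -0.55.

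Of all measured genes 58.7% were higher in 2VO, with a median log2 ratio of 0.039. Upstream of the receptors, the 5 measured synthesis genes were all higher in 2VO, with a median log2 ratio of 0.34. They were the decarboxylase Ddc, at 1.29 units in Sham and 2.18 in 2VO, and 4 genes of the tetrahydrobiopterin cofactor, of which Qdpr was the most abundant at 220 and 242. The rate-limiting genes themselves lay under 1 unit. Th was 0.339 in Sham and 0.558 in 2VO, Tph2 was 0.671 and 0.419, and Hdc was 0.290 and 0.266. Among transporters the low-affinity carrier Slc29a4 was 10.99 and 9.20, while Slc6a4, the serotonin transporter gene, was 0.00678 and 0.0369. The organic cation transporter gene Slc22a2 was listed at 0 in each library. Of 7 measured breakdown genes 6 were higher in 2VO, against the same 58.7% over all measured genes, with a median of 0.070. The monoamine oxidase genes Maoa and Maob had 16.9 and 24.96 in the Sham rat against 19.8 and 26.2 in 2VO, and the aldehyde dehydrogenase gene Aldh2 was 24.8 and 28.1. The histamine methyltransferase Hnmt was the lower one at 3.04 and 2.68.

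Below the receptors, 7 of 10 G protein alpha subunit genes were higher in 2VO, where 58.7% of all measured genes were. The median log2 ratio of the 10 genes was 0.095. Gnas, which encodes the Gs subunit, was 454 units in the mouse, 260 in the Sham rat and 353 in the 2VO rat, and Gnao1, of the Gi/o class, was 144, 110 and 137. Of 7 measured adenylyl cyclase genes 4 were higher and 3 lower (median 0.012), and Adcy1 was 90.4 in the mouse, 190 in the Sham rat and 129 in the 2VO rat. Phospholipase C beta genes were led by Plcb1, at 31.3, 29.2 and 32.7, with a median of 0.16 over 3 measured genes. Receptor kinases and arrestins had a median of 0.020 over 7 genes, with Grk2 at 69.4 in Sham and 66.1 in 2VO. Protein kinase A subunits and targets had a median of 0.090 over 10 genes, with Prkar1b at 172 and 174.

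For the mouse only levels are given beside those of the rats, since species, age and handling cannot be told apart. Over 20 members averaging at least 1 unit in the 3 libraries, 4 lay at least 2-fold above both rats in the mouse: Drd5, Htr2a, Htr3a and Htr7. Over all 11457 shared symbols this share was 4.48%. Drd5, Htr2a and Htr7 averaged under 1 unit in the rats and entered only through their mouse value, so the count is not read against that share. Adra2c and Htr5b lay at least 2-fold below both rats, where 9.54% of all shared symbols did. The log2 ratio of mouse to Sham was 1.68 for Drd5, 1.38 for Htr3a, 1.10 for Htr7 and 1.04 for Htr2a, and it was -1.42 for Adra2c and -1.48 for Htr5b. Against 2VO the same ratios were 1.46, 1.23, 1.18, 1.25, -1.26 and -1.33. Htr2c and Adra2a passed 2-fold against Sham alone, at 1.39 and 1.10, and stood at 0.44 and 0.37 against 2VO. The gap between the 2 ratios of a gene restates its 2VO to Sham ratio and is no separate observation.

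**Figure D4:**
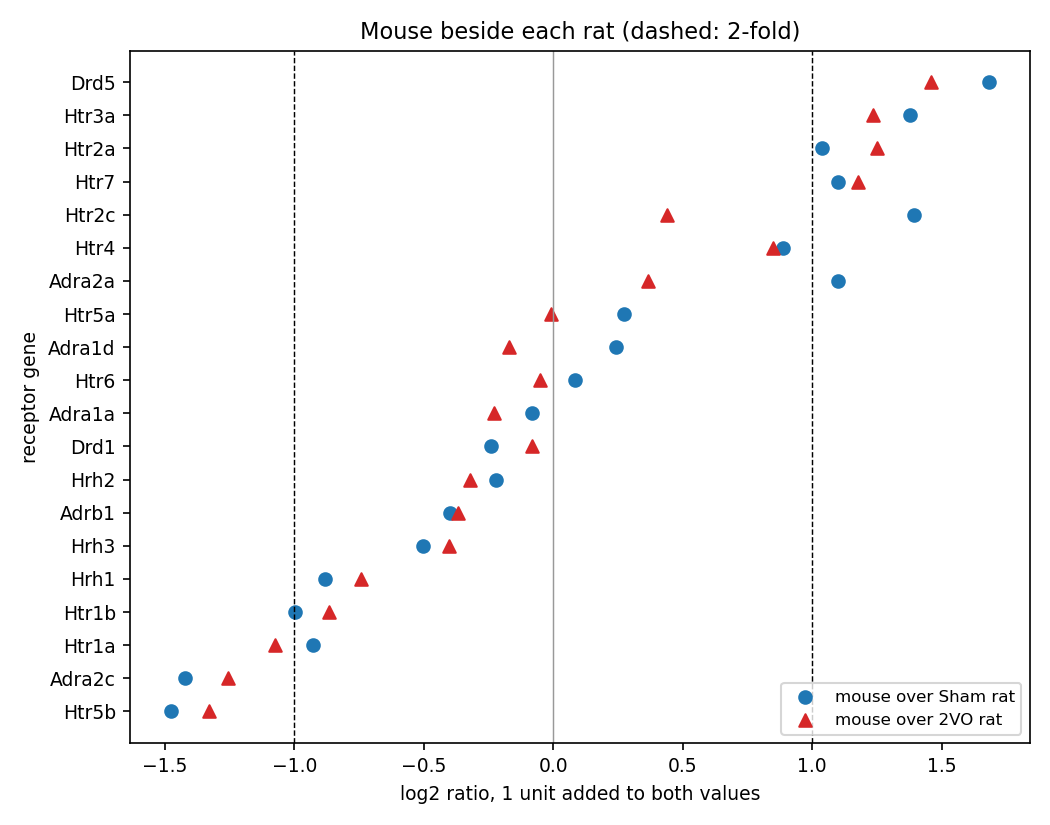
Log2 ratio of the mouse to the Sham rat (circles) and to the 2VO rat (triangles), 1 unit added to both values, for the 20 receptor genes averaging at least 1 unit over the 3 libraries; dashed lines mark 2-fold. Drd5, Htr3a, Htr2a and Htr7 lie right of the upper line in both ratios, and Adra2c and Htr5b left of the lower line in both. The 2 ratios lie furthest apart for Htr2c and Adra2a, which restates their 2VO to Sham ratios.

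Beside the higher mouse level of the interneuron receptor gene Htr3a, 10 of 14 interneuron genes lay above both rats in the mouse. Their list had a summed level of 698 units in the mouse against 439 in Sham and 457 in 2VO. The share of all shared symbols above both rats by any amount was not computed, so this count has no background beside it. The list was not split by interneuron class, so its count and sum are not those of the class that Htr3a marks. Sst, the somatostatin gene, was the most abundant of the list in the mouse. It was 204 in the mouse, 96.6 in the Sham rat and 86.7 in the 2VO rat. The others were divided: Slc32a1, the vesicular GABA transporter gene, and Pvalb lay below both rats, Slc32a1 at 20.0 in the mouse against 27.3 and 29.1 and Pvalb at 20.3 against 37.6 and 37.0, and in 2 genes the mouse lay between the rats. The summed level of cortical projection neuron genes was 86.6 units in the mouse, 130 in the Sham rat and 141 in the 2VO rat. The part of either in the receptor levels was not tested. Between the rats the order of the receptors by level had a Spearman's rho of 0.917 over the 17 measured members, where all measured genes gave 0.988. Across species rho over all 32 members was 0.847 between mouse and Sham and 0.856 between mouse and 2VO. Over the members averaging at least 1 unit in each pair it was 0.448 (20 members) and 0.544 (21 members), where all such shared symbols gave 0.866 and 0.876. Drd5, Htr2a, Htr7 and, in the pair with 2VO, Adra1b averaged under 1 unit in the rats and entered only through their mouse value. The members also span a narrower range of level than all genes, which can lower rho. No set of genes at like levels was compared, so the values of rho are not read against those of all genes. These values of rho describe genes, which share a library and are not replicates.

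Grouped by coupling, the Gi/o receptors held 60.6% of the summed level in Sham, 54.9% in 2VO and 37.8% in the mouse. The coupling of Htr5b is less settled than that of the others, and without it these shares were 57.4%, 51.9% and 36.2%. Gq/11 receptors held 25.7% in Sham, 31.8% in 2VO and 38.1% in the mouse, and Gs receptors 12.5%, 11.96% and 19.0%. The Gi/o sum itself was 76.7 units in Sham and 75.6 in 2VO, while the Gq/11 sum was 32.6 and 43.8. The difference between the rats in these shares therefore lay in the Gq/11 sum, to which Adra1d and Htr2c contributed most. In the mouse the Gi/o sum was 43.2 and the Gq/11 sum 43.6.

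**Figure D5:**
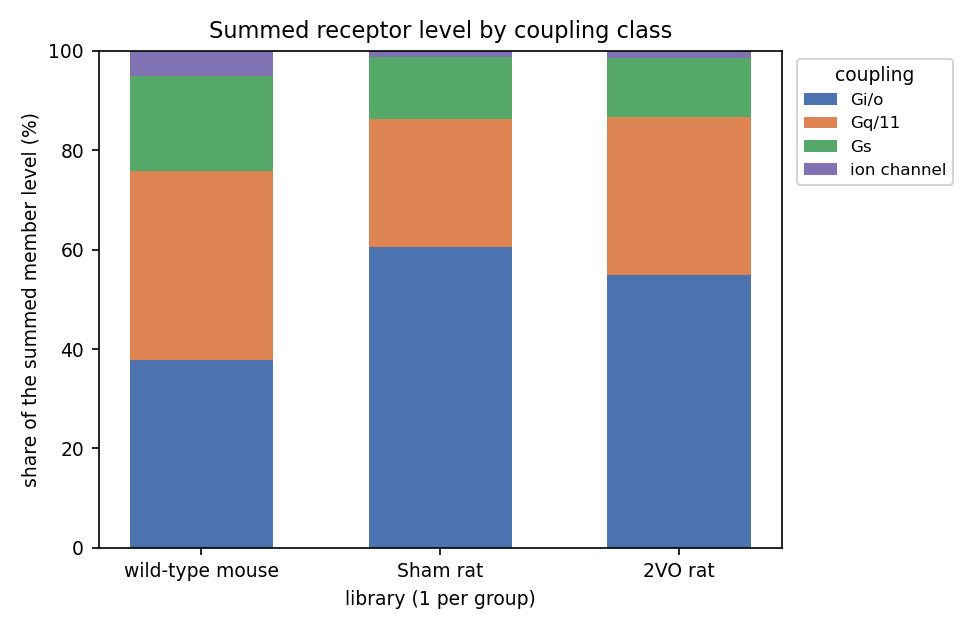
Share of the summed level of the 32 receptor genes held by each coupling class in the wild-type mouse, the Sham rat and the 2VO rat, in percent, 1 library each. The Gi/o share is 37.8% in the mouse, 60.6% in the Sham rat and 54.9% in the 2VO rat.

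Gene structure is a feature the symbol rule did not use. In the mouse annotation GENCODE M21, the coding sequence of 12 of the 32 members lies in 1 exon, a share of 37.5% against 16.5% of 21924 protein-coding genes. They included Htr1a, Htr1b, Htr1d, Htr1f, Adra2a, Adra2b, Adra2c, Adrb1, Drd1, Drd5 and Hrh1. Their levels ran from Adra2b, listed at 0 in Sham, to Htr1a, while Adra1d and Hrh3, the genes above Htr1a in every library, have 2 and 3 coding exons. At the other end Htr3a and Htr3b each have 9 coding exons and Drd2 and Drd3 have 7. In the rat RefSeq table Htr2c hosts a small nucleolar RNA, Snora35, and 5 microRNA genes, and Hrh1, Htr4, Htr5a and Adra1b overlap long noncoding RNAs and Htr7 a pseudogene. The sources used here do not say how reads in such overlaps were counted.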

How the data were processed

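Total RNA of hippocampus was extracted with TRIzol and made into TruSeq v2 libraries, per the labels' protocols. Each deposited table holds 1 normalized expression signal per gene, in a unit that neither the labels nor the file headers state. The values are not whole, and 99.0% to 99.4% of those above 0 were distinct. The submitters' processing notes name the genome builds mRatBN7.2 and GRCm39, and as tools DESeq2, HISAT2 (2.1.0) and fastp (0.21.0), without roles. Quantifier and annotation: the sources used here give neither. Depth is unknown, so no interval or floor is given.

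Groups came from the sample titles. Libraries were compared as deposited; no test was run. Ratios were taken with 1 unit added, for genes averaging at least 1 unit, and counted at 1.5-fold and 2-fold. Mouse and rat symbols were joined ignoring case. Receptor genes are named throughout, except that some genes, of this set and of the other lists, are not reported here. Genes of other lists are named where past 1.5-fold, where most abundant in their list or at 0 in every library, and further ones as examples chosen after their values were seen. The members and lists were chosen with earlier results of these data known. All 32 members matched the GRCr8 RefSeq table by symbol; builds differ, so no coordinates are given. The ratio and fold calls were tested on simulated data, with genes of at least 5 units and made differences larger than 2-fold. That checks the code and not calls at the lower Sham levels of Htr2c and Adra2a. Python 3.11.15, pandas 2.3.3, numpy 2.4.6 and matplotlib 3.10.9 were used.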

Additional observations from a re-analysis of the deposited data

How the results depend on the processing

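With 1 library per group, no alternative replaces a replicate, and the unknown depth limits every low value. Htr2c and Adra2a were the genes at least 1.5-fold higher in 2VO, and 0 were lower, with 0.25 units added before the log, without a filter, and with upper-quartile or median-of-ratios scaling. With 4 units added 1 gene remained, Htr2c, and Adra2a stood at 0.35. With a mean of at least 5 units 0 remained, because Htr2c (mean 4.98) and Adra2a were no longer measured. The median log2 ratio of the members was 0.14 with 0.25 units added, 0.048 both with 4 units added (0.0477) and without a filter (0.0481), 0.0666 and 0.0673 under upper-quartile and median-of-ratios scaling, and -0.063 over the 6 genes averaging 5 units or more, so it has no settled sign. Under upper-quartile scaling 1.17% of all measured genes were 1.5-fold higher and 1.22% lower, so the excess of higher genes in the tables rests on the scaling. At a threshold of 2 units 11 members were detected in Sham, 14 in 2VO and 14 in the mouse, and at 0.5 units 22, 24 and 22, so of these thresholds only 1 unit gave both rats an equal number. With 0.25 units added 2 members passed 2-fold, Htr2c and Adra2a, against 0 with 1 unit. With 4 units added 0 members lay 2-fold above and 0 below both rats in the mouse; with 0.25 units added Htr4 and Htr1b joined those named. No paired analysis was possible because each group holds 1 library.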
